A study of Mus musculus with 12 samples.

Results

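The mRNAs described here encode the subunits of the oxidative phosphorylation complexes of the mitochondrion, in cytotoxic CD8+ T cells (CTL). They were taken by symbol: the mitochondrially encoded mRNAs (mt-Nd, mt-Co, mt-Cytb and mt-Atp) and the nuclear Nduf, Sdh, Uqcr, Cox and Atp5 families. The rule used no measured value. It found 103 of the 13283 genes in the expression table, of which 9 are encoded in mitochondrial DNA and 94 in the nucleus. Of the nuclear members, 76 are structural subunits of complexes I (36), II (4), III (8), IV (11) and V (17). The others are 8 complex I assembly factors, the supercomplex factor Cox7a2l, 3 tissue isoforms (Cox6a2, Cox6b2 and Cox7a1) and 6 genes whose symbols mark them as pseudogenes. The mRNAs mt-Atp6, mt-Atp8, mt-Nd3 and mt-Nd4l, and the isoforms Cox4i2, Cox8b, Cox8c and Ndufa4l2, were not analysed here.

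Complexes I to IV move electrons from NADH or succinate to oxygen, and complexes I, III and IV pump protons as they do so. Complex V, the ATP synthase, uses the proton gradient to make ATP. Complexes I, III, IV and V each join subunits from both genomes, whereas complex II, succinate dehydrogenase, is built of nuclear products alone. The mitochondrial mRNAs are cut from long polycistronic transcripts of the circular genome, while each nuclear subunit has its own promoter. Activated T cells are known for raising glycolysis while they keep respiration, and FOXO1 is known for its part in T cell quiescence. PI3K p110δ has been linked to T cell metabolism, a view that the paper reporting these data says must be revised.

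The 12 libraries fell into 4 groups of 3. WT CTL came from GzmB cre+ mice whereas the mice for FOXO1-GFP KO CTL were GzmB cre+ and FOXO1-GFP fl/fl, so both genotypes carried the Cre, driven by the granzyme B promoter, and only the second carried the floxed Foxo1 allele tagged with GFP. In all 4 groups cells were activated with antibodies to CD3 and CD28 and kept in IL-2 and IL-12. They were then cultured for 24 h with or without 10 µM IC87114, an inhibitor of the PI3K p110δ catalytic subunit (PI3Kdi). Cells without the inhibitor had DMSO as vehicle, and their libraries are called untreated below. The WT cells were sorted as CD8+ and the FOXO1-GFP KO cells as CD8+ and GFP negative, so only cells that had lost the tagged allele were kept, and the 2 genotypes went through different gates. Foxo1 itself stood at 5.77 to 10.46 FPKM in the 6 WT libraries and at 0.58 to 1.75 FPKM in the 6 FOXO1-GFP KO libraries, which do not overlap. FPKM are fragment counts scaled to library size and to the summed length of all non-overlapping exonic regions of a gene. That length can exceed the length of a single transcript of the gene. A library held an estimated 12.9 to 48.0 M counted reads.

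All 9 CD8 T cell markers were in the table, with a summed level of 9711 to 14176 FPKM. Of the B cell markers, 5 of 12 were in the table (Cd74, Cd79b, H2-Ab1, Ighm and Igkc), and their sum was 19.3 to 25.79 FPKM in the WT groups against 8.51 to 11.73 FPKM in the FOXO1-GFP KO groups. The 5 of 12 myeloid markers in the table summed to 33.64 to 66.24 FPKM, the 3 of 4 CD4 T cell markers to 4.96 to 8.24 FPKM, and none of the 6 erythroid markers had a row. In bulk RNA from sorted cells, fewer cells of a type and less RNA per cell cannot be told apart. Libraries with the same replicate number within a genotype lay close to each other, and they are called pairs below. WT pair 1 and FOXO1-GFP KO pair 3 stood apart from the other pairs of their genotype in the levels of the OXPHOS mRNAs, so each comparison is also given within pairs.

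The 9 mitochondrial mRNAs had to be read first against their copies in the nuclear genome. Stretches of mitochondrial DNA inserted in the nuclear chromosomes carry annotated genes of their own, and a read that matches both places can be left out of a count of uniquely mapped reads. The first 75 bases of mt-Co2 and mt-Co3, subunits of cytochrome c oxidase, are printed beside their copies on chromosome 1 because the pairs are the same letter for letter (RefSeq GRCm38.p6, GENCODE M21 coordinates).
mt-Co2 at chrM:7013-7087: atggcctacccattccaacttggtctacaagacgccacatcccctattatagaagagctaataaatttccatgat
Gm28661 at chr1:24615491-24615565, minus strand: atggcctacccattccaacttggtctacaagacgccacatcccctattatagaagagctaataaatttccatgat
mt-Co3 at chrM:8607-8681: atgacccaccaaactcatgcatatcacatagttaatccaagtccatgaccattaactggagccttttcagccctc
Gm28437 at chr1:24613897-24613971, minus strand: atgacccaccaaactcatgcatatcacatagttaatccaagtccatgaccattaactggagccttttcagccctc

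Along their whole aligned lengths, mt-Co2 and Gm28661 shared 681 bases with 0 mismatches, and mt-Co3 and Gm28437 shared 783 bases with 0 mismatches. Of all windows of 75 bases in the transcript, 99.5% for mt-Co2 and 99.9% for mt-Co3 were found in another annotated transcript. The copies of mt-Nd2, a complex I subunit, had diverged instead. One window of the mt-Nd2 transcript is printed beside its counterpart on chromosome 2, with the 3 bases that differ in capitals.
mt-Nd2 at chrM:4482-4556: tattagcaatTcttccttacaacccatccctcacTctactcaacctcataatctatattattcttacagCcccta
Gm13339 at chr2:22590419-22590493, minus strand: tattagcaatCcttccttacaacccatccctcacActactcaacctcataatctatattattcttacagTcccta

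The share of 75-base windows found elsewhere was 5.71% for mt-Nd2, 1.66% for mt-Nd5 and 0% for mt-Nd1, mt-Cytb and mt-Nd6. It was 39.8% for mt-Co1 and 61.5% for mt-Nd4, whose copy Gm28439 matched 876 bases with 0 mismatches. The levels were split in the same way. mt-Co1, the catalytic subunit of complex IV, had a mean of 4914 FPKM over the 12 libraries, while mt-Co2 had 0.515 FPKM and mt-Co3 had 0.474 FPKM, although the same polycistronic transcript holds all of them. Reads lost to the copies were not measured here, so the values of mt-Co2 and mt-Co3 were not taken as levels of these mRNAs, and those of mt-Co1 and mt-Nd4 are lower bounds if any were lost. Sums and medians below are over the other 7 mitochondrial mRNAs, with values over all 9 where said.

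**Figure D1:**
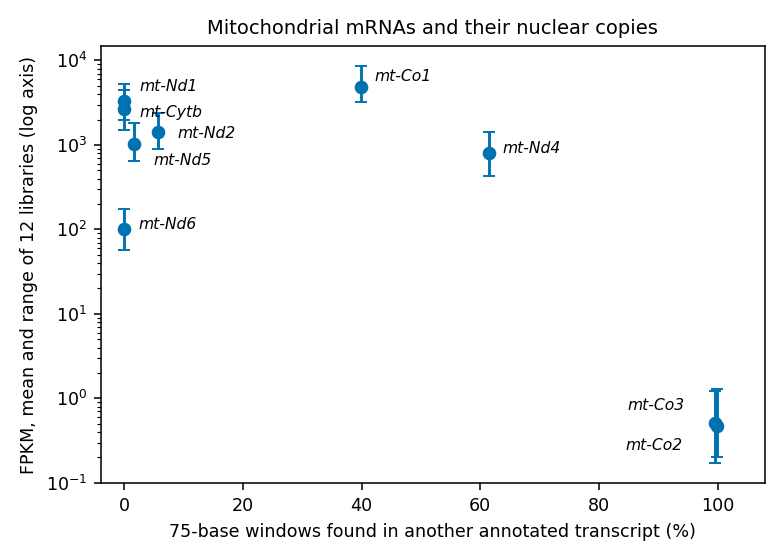
Mean FPKM over the 12 libraries (log axis) of the 9 mitochondrial mRNAs against the percent of 75-base windows of each transcript that another annotated transcript holds. mt-Co2 and mt-Co3, with 99.5% and 99.9% of windows shared, are at about 0.5 FPKM, while the other 7 lie between 102 and 4914 FPKM.

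Some nuclear members share sequence as well. In 24 nuclear members over 20% of the windows were found in another transcript, among them Atp5l, which shares windows with 10 other genes, and Atp5g2 (100%), one of 3 genes for the ring subunit c of the ATP synthase. Ndufb2, a supernumerary complex I subunit, overlaps the read-through gene Gm42420 on the same strand and had the lowest mean of the structural subunits, 1.17 FPKM. In all, 30 members overlapped another gene of the table, 26 of them on the opposite strand, and the strand setting of the counts is not given in the sources used here. The levels of these genes are uncertain in that respect.

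The nuclear subunits of complex I had a median of 49.9 FPKM, from Ndufb2 to Ndufa1 at 154 FPKM. Those of complex II had a median of 65.2 FPKM, with Sdhc lowest at 29.2 FPKM and Sdhd highest at 103 FPKM. Complex III subunits had a median of 118 FPKM, from Uqcrc1 at 47.3 to Uqcr10 at 165 FPKM. Complex IV subunits were highest, with a median of 179 FPKM and Cox8a at 379 FPKM, and complex V subunits had a median of 104 FPKM, led by the catalytic β subunit Atp5b at 288 FPKM. The complex I assembly factors, which are not part of the finished complex, were at 4.14 to 14.5 FPKM. The median of the 7 mitochondrial mRNAs was 1434 FPKM. These levels depend on the exon length used for scaling, which was 6443 bases for Atp5l, against 544 bases for its transcript. Differences in level between genes, and so between complexes, are uncertain in that respect.

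The promoters of the nuclear members were searched for 3 factors long linked to respiratory genes. All 94 nuclear members were matched to RefSeq, and 75 had a promoter sequence (250 bases before to 50 after the start), 64 of them structural subunits. The NRF1 letters GCGCATGCG, on either strand, stood in 8 of 64 (12.5%), against 3.81% of 9653 promoters of genes in the table and 1.81% of all 27025 promoters. The YY1 letters AAGATGGC stood in 9 of 64 (14.1%), against 5.02% of genes in the table and 2.88% of all. Of these, 7 were complex I genes and 2 complex V genes. None lay wholly ahead of the start: the match in Atp5pb spanned it (-3 to 4), and the others lay between bases 22 and 45 after it. The ETS letters CTTCCGG stood in 16 of 64 (25.0%), against 19.6% of genes in the table and 9.12% of all. Among the 5096 promoters of genes in the table with a GC content of 49.7 to 64.4%, the 10th to 90th percentile of the subunits, the shares were 4.43% for NRF1, 5.77% for YY1 and 22% for ETS. The longer ETS letters ACTTCCGG, a subset of the same matches, stood in 7.81% of the subunits, against 9.02% of genes in the table and 10.4% of those in that GC range.

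Atp5l and Cox6a1 were the only structural subunits with 2 of these letter strings ahead of the RefSeq start, and the stretches are printed with NRF1 and ETS letters in capitals.
Atp5l, bases -250 to -196 from the start, chr9:44920938-44920992, minus strand: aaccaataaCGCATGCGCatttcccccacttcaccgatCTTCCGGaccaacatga
Cox6a1, bases -172 to -143, chr5:115349101-115349130, minus strand: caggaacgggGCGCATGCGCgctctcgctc
Cox6a1, bases -26 to -1, chr5:115348959-115348984, minus strand: cccatttccgCTTCCGGcgcgccggt
Where the NRF1 letters read the same on both strands, as in Cox6a1, the 2 matches overlap. The ETS letters of Cox6a1 lie in an exon of a Cox6a1 transcript that starts further upstream in GENCODE M21. These matches describe letters only, and no binding was measured.

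The first question was what 24 h of PI3K p110δ inhibition did to these mRNAs in WT CTL. No OXPHOS member passed the test, and the levels moved little. mt-Co1 stood at 3253, 4919 and 5649 FPKM in the WT libraries and at 3372, 4862 and 5449 FPKM with PI3Kdi. mt-Cytb, the only mitochondrially encoded subunit of complex III, stood at 1489, 2660 and 3194 FPKM without and 1505, 2374 and 2779 FPKM with the inhibitor. In both genes the lowest library of each group was that of pair 1, and the 2 groups overlapped over most of their range.

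The median log2 fold change (on log2(FPKM + 0.1), by limma over all genes) was -0.07 for the 7 mitochondrial mRNAs and -0.05 for the 76 nuclear subunits, against -0.04 for all 13283 genes. The fold change was above 0 for 16 of 76 nuclear subunits, as it was for 39.9% of all genes. At an adjusted p under 0.05 and a fold over 1.5 the test called 0 of 103 members and 0.0979% of all genes, and at an unadjusted p under 0.05 it called 1 member (Cox6a2) and 5.14% of all genes. The median standard error (SE) of a nuclear subunit was 0.23 and that of a mitochondrial mRNA 0.38. With the replicate number as a block within genotype, which fits a common correlation between libraries of a pair, they were 0.09 and 0.15. The signs of both medians rested on single libraries: without WT+PI3Kdi replicate 1 they were 0.17 and 0.11, and without WT replicate 3 they were 0.13 and 0.08. Without WT replicate 2 the mitochondrial median alone was above 0, at 0.04.

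Within pairs, the mean change of the nuclear subunits in WT was -0.02, -0.03 and -0.12 on the log2 scale (mean -0.06 ± 0.06 SD, n = 3 pairs). Of the 76, 34 were lower in all 3 pairs and 4 higher in all 3, beside 32.3% and 17.0% of the 10371 genes with at least 1 FPKM. With the block 2.57% of all genes were called and again 0 members. At any fold change that fit called 7.41% of all genes and 1 member, Ndufaf5, a complex I assembly factor, at -0.26 (adjusted p = 0.028).

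In FOXO1-GFP KO CTL the same comparison gave small positive fold changes and again no call. The median was 0.22 for the mitochondrial mRNAs and 0.12 for the nuclear subunits, against -0.02 for all genes. mt-Co1 stood at 3477, 3865 and 6822 FPKM without and 3973, 4691 and 8631 FPKM with PI3Kdi, higher in each of the 3 pairs. All 7 mitochondrial mRNAs were higher in all 3 pairs, as were 40 of 76 nuclear subunits and 24.3% of the genes with at least 1 FPKM, while 6 nuclear subunits were lower in all 3, beside 29.1% of those genes.

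The mean change of the nuclear subunits was 0.15, 0.15 and 0.02 in the 3 pairs (0.10 ± 0.07 SD). By complex the medians were 0.15 for I, -0.02 for II, 0.07 for III, 0.13 for IV and 0.07 for V. The test called 0 of 103 members and 0.0452% of all genes. At an unadjusted p under 0.05 it called 1 member, Cox7a2l, and 5.17% of all genes. Without any one library the median of the mitochondrial mRNAs ran from -0.11 (without FOXO1-GFP KO+PI3Kdi replicate 3) to 0.53 and that of the nuclear subunits from 0.02 to 0.29.

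With the block, 2.79% of all genes and 0 members were called, and at any fold change 10.1% of all genes and 4 members. Cox7a2l, which helps join complexes III and IV into supercomplexes, stood at 90.02, 88.3 and 103.7 FPKM without and 111.1, 117.2 and 127.1 FPKM with PI3Kdi, which do not overlap. Its log2 fold change was 0.34 ± 0.06 (SE, adjusted p = 0.0083 with the block), a fold under 1.5, and the adjusted p was 0.868 without the block. The other 3 were Atp5d, the δ subunit of the ATP synthase (0.34, adjusted p = 0.0399), Ndufa6 (0.36, adjusted p = 0.0479) and the NADH-binding subunit Ndufv1 (0.17, adjusted p = 0.0323), all with the block.

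Ndufv1 held 36.5, 37.9 and 35.7 FPKM without and 41.0, 42.3 and 40.6 FPKM with PI3Kdi, a small but separate rise in each pair. Ndufa6, a small supernumerary subunit, held 29.4, 26.3 and 43.3 against 35.1, 37.2 and 53.6 FPKM, and Atp5d held 164.2, 143.3 and 210.3 against 197.2, 187.5 and 269.0 FPKM. In both, pair 3 was the highest in either group, so the groups overlap although each pair rose.

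**Figure D2:**
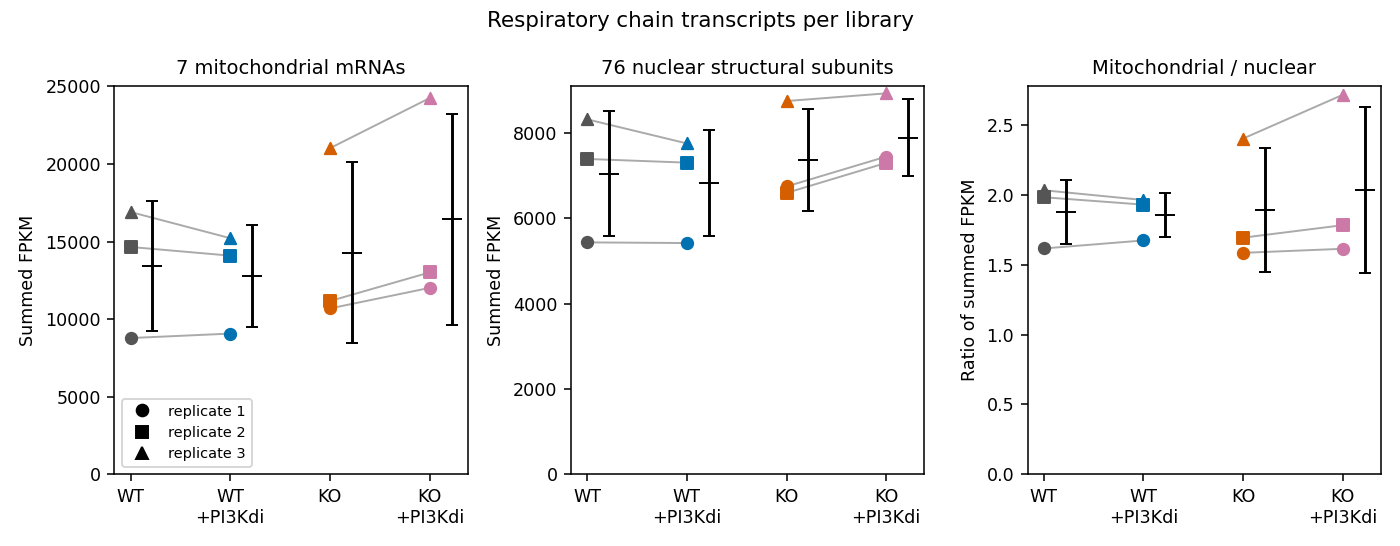
Summed FPKM of the 7 mitochondrial mRNAs (left), summed FPKM of the 76 nuclear structural subunits (middle) and their ratio (right) in each library by group, with lines joining pairs and bars giving the mean ± SD of 3 libraries. Pair 1 is lowest in both WT groups and pair 3 is highest in both FOXO1-GFP KO groups, and the lines from untreated to PI3Kdi are short beside the distance of these pairs from the others of their genotype.

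The responses of the 2 genotypes were then set against each other. The difference of responses (FOXO1-GFP KO minus WT) had a median of 0.26 for the mitochondrial mRNAs, 0.17 for the nuclear subunits and 0.02 for all genes, and was above 0 for 70 of 76 nuclear subunits and 54.7% of all genes. It was not past the test for any member: 0 of 103 members and 0.0% of all genes were called, and 1 member (Cox6a2) and 1.51% of all genes had an unadjusted p under 0.05. With the block 0.0226% of all genes were called, or 0.0376% at any fold change, and 0 members in either case. Without FOXO1-GFP KO+PI3Kdi replicate 3 the mitochondrial median was -0.06, and without WT+PI3Kdi replicate 1 the nuclear one was -0.003. The cytosolic ribosomal protein genes, which are no part of the mitochondrion, had a median difference of 0.18, close to that of the nuclear subunits.

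The genotypes were compared without and with the inhibitor, to ask whether loss of Foxo1 moved the OXPHOS mRNAs. The 7 mitochondrial mRNAs summed to 13448 ± 4194 FPKM in WT and 14293 ± 5831 FPKM in FOXO1-GFP KO CTL (mean ± SD, n = 3), and with PI3Kdi to 12795 ± 3275 and 16426 ± 6794 FPKM. The nuclear subunits summed to 7045 ± 1471 and 7360 ± 1201 FPKM without, and 6823 ± 1238 and 7888 ± 901 FPKM with the inhibitor. In each case the groups overlapped and the difference was smaller than 1 SD of at least 1 of the groups.

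Without PI3Kdi the median log2 fold change was 0.08 for both sets (-0.01 for all genes), with 0 of 103 members and 0.331% of all genes called, and 0 members and 6.51% of all genes at an unadjusted p under 0.05. The block called 0 members and 0.233% of all genes, whether or not a fold over 1.5 was asked (0.233% at any fold). With PI3Kdi the medians were 0.29 and 0.25 (0.01 for all genes), and 71 of 76 nuclear subunits were above 0, beside 51.0% of all genes. Here 1 of 103 members (Cox6a2) and 1.45% of all genes were called, and 2 members (Cox6a2 and Cox6b2) and 10.2% of all genes had an unadjusted p under 0.05. With the block 0 members and 1.18% of all genes were called, or 0 members and 1.25% at any fold.

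These medians rested on WT pair 1 and FOXO1-GFP KO pair 3. Without PI3Kdi they were -0.23 and -0.12 when WT replicate 1 was left out and -0.28 and -0.07 when FOXO1-GFP KO replicate 3 was left out, and with PI3Kdi they were -0.02 and 0.15 when FOXO1-GFP KO+PI3Kdi replicate 3 was left out. Without WT+PI3Kdi replicate 1 the nuclear median with PI3Kdi was 0.07. With both pairs left out, a choice made after their levels were seen and one that sets the direction, the median without PI3Kdi was -0.52 for the mitochondrial mRNAs and -0.28 for the nuclear subunits, and with PI3Kdi it was -0.24 and -0.03. The summed B cell markers were lower in both FOXO1-GFP KO groups, as given above, and their part in the comparison was not tested.

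**Figure D3:**
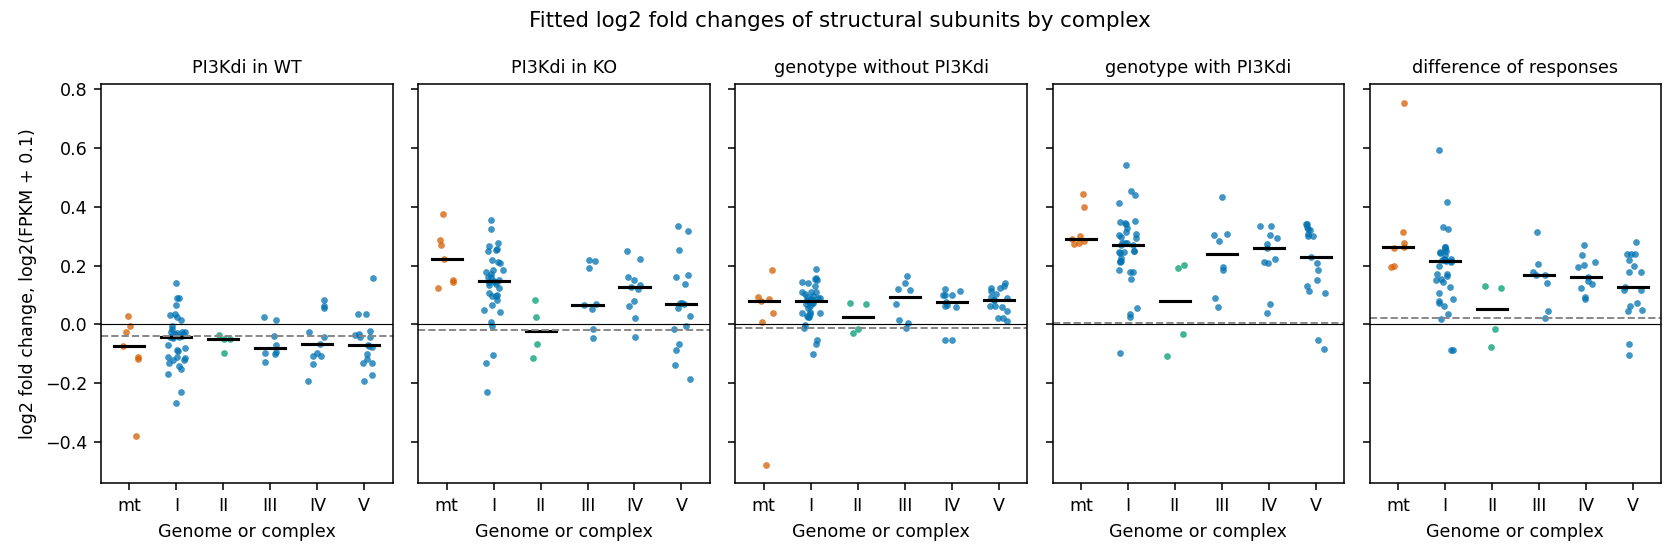
Log2 fold changes (points) of the mitochondrial mRNAs without mt-Co2 and mt-Co3 and of the nuclear structural subunits by complex, in the 5 comparisons. Black bars mark the median of each class and a dashed line the median of all genes. Most points lie within 0.5 of 0. The single called member, Cox6a2 (2.18 between genotypes with PI3Kdi), is a tissue isoform and is not drawn.

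The largest spread in OXPHOS mRNA levels was between pairs of the same genotype. The summed nuclear subunits stood at 5433 and 5418 FPKM in WT pair 1 (without and with PI3Kdi), 7388 and 7301 FPKM in pair 2, and 8316 and 7751 FPKM in pair 3. In FOXO1-GFP KO CTL they stood at 6743 and 7443 FPKM in pair 1, 6592 and 7296 FPKM in pair 2, and 8745 and 8925 FPKM in pair 3. The mitochondrial mRNAs went the same way, from 8783 and 9070 FPKM in WT pair 1 to 16908 and 15220 FPKM in WT pair 3, and from 10690 and 12016 FPKM in FOXO1-GFP KO pair 1 to 21020 and 24249 FPKM in pair 3. In WT the inhibitor moved either sum by less than the step from pair 1 to the other pairs. In FOXO1-GFP KO CTL it moved them by less than the step to pair 3 but by more than pairs 1 and 2 differed from each other without it.

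Of the sum of squares of the mean log2 level over the 12 libraries, 91.8% lay between pairs of a genotype for the mitochondrial mRNAs and 84.8% for the nuclear subunits. Genotype held 3.32% and 10.6%, and the inhibitor, averaged over the genotypes, 0.507% and 0.280%. The difference of responses between genotypes held 3.29% and 3.02%. The share between pairs pools several contrasts among pairs, whereas each of the other shares named here is a single contrast, so they are not like for like. By single gene the median share between pairs was 82.6% for the nuclear subunits and 65.1% for the 10371 genes with at least 1 FPKM. These shares are a description, since the labels do not say what members of a pair have in common.

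**Figure D4:**
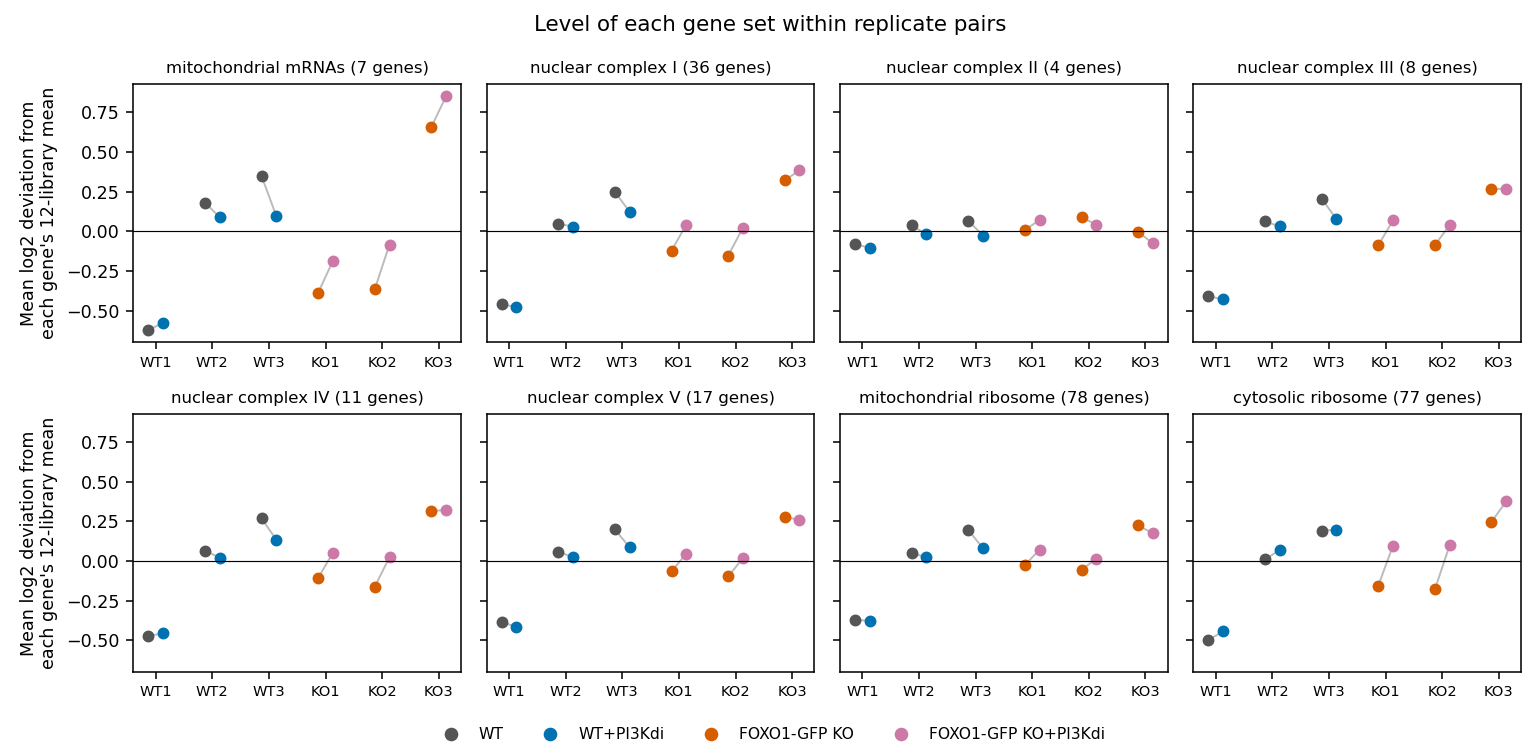
Mean log2 deviation from the average of the 12 libraries for the mitochondrial mRNAs, the nuclear subunits by complex and related sets, in each library joined by pair (KO stands for FOXO1-GFP KO). The mitochondrial mRNAs span -0.62 to 0.85, complexes I, III, IV and V span less, and complex II stays between -0.11 and 0.09.

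From WT pair 1 to WT pair 3 the median log2 difference was 0.84 for the mitochondrial mRNAs and 0.69 for the nuclear subunits, and 71 of 76 nuclear subunits were higher in pair 3. From FOXO1-GFP KO pair 1 to pair 3 it was 0.99 and 0.37, with 62 of 76 higher. The median of the 10371 genes was 0.02 in WT. The largest steps in WT were in mt-Nd4 (1.08), Uqcr11, a small complex III subunit (1.03), and Ndufb2 (1.02). The medians by complex were 0.70 for I, 0.65 for III, 0.71 for IV and 0.65 for V.

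Complex II differed in this from the others. Its median step in WT was 0.10, and its summed level was 264 ± 11.6, 255 ± 4.79, 268 ± 10.2 and 264 ± 13.3 FPKM in the 4 groups (WT, WT+PI3Kdi, FOXO1-GFP KO, FOXO1-GFP KO+PI3Kdi; mean ± SD, n = 3). Its 4 subunits went opposite ways. Sdha, the flavoprotein that oxidises succinate, was at 58.3 FPKM in WT pair 1 and 47.3 in WT pair 3, and at 53.5 and 41.1 FPKM in the same pairs of FOXO1-GFP KO CTL, all without PI3Kdi. Sdhb, the iron-sulphur subunit, was at 59.8 and 93.6 FPKM in WT and at 74.04 and 96.5 FPKM in FOXO1-GFP KO CTL. The 2 membrane anchors were split as well, with a step in WT of 0.33 for Sdhc and -0.13 for Sdhd. The even sum of complex II thus held single genes that went opposite ways.

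The other nuclear subunits that went against the trend in WT were Ndufs1, the largest core subunit of complex I (-0.46), Atp5a1 (-0.14) and Atp5b (-0.12), which form the catalytic head of the ATP synthase. Transcript length went with this pattern. In nuclear subunits with transcripts up to 700 bases the median step was 0.72 (35 genes), and it was 0.69 at 700 to 1000 bases (16), 0.51 at 1000 to 1500 (10), 0.29 at 1500 to 2500 (11) and 0.18 above 2500 bases (4). All genes of at least 1 FPKM gave 0.58, 0.53, 0.37, 0.16 and -0.26 in the same classes. Spearman's rho between step and length was -0.40 over the 76 subunits and -0.66 over all genes, across genes within the same libraries, which are not independent replicates.

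Each length class of the subunits thus lay above all genes of that class, by less than 0.2 in the classes up to 2500 bases, while the step as a whole was 0.69. The cytosolic ribosomal protein genes, which are also short, had a median step of 0.70 in WT and one of 0.37 in the knockout. The mitochondrial ribosome (78 genes) had 0.56 in WT. Whether RNA quality, library preparation or the cells themselves set the length trend was not tested.

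With trends on length and GC content removed from each library, the median log2 fold change of the nuclear subunits was 0.03 for PI3Kdi in FOXO1-GFP KO CTL, 0.11 for genotype with PI3Kdi and 0.07 for the difference of responses. The mitochondrial medians were 0.23, 0.23 and 0.15. This adjustment was chosen after the data were seen, and with or without the block it called no structural subunit in any comparison.

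**Figure D5:**
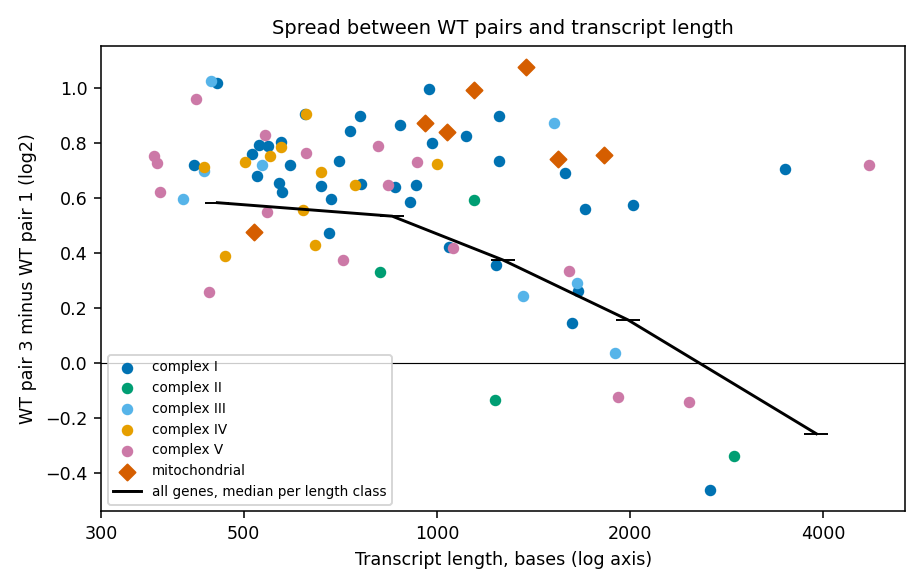
Step in log2 level from WT pair 1 to WT pair 3 (mean of untreated and PI3Kdi libraries) against transcript length in bases. Points are the mitochondrial mRNAs without mt-Co2 and mt-Co3 and the nuclear structural subunits, with the median of all genes in each length class. Short transcripts lie near 0.7, and Ndufs1 and Sdha, with long transcripts, lie below 0.

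The ratio of mitochondrial to nuclear mRNA was set out by library. The untreated WT libraries had ratios of 1.62, 1.98 and 2.03, and those with PI3Kdi 1.67, 1.93 and 1.96. The untreated FOXO1-GFP KO libraries had 1.59, 1.69 and 2.40, and those with PI3Kdi 1.61, 1.78 and 2.72. Only FOXO1-GFP KO pair 3 stood outside the range of the other libraries, in both of its libraries. The median fold change of all 9 mitochondrial members minus that of the nuclear subunits was 0.02 for PI3Kdi on WT cells, 0.10 for PI3Kdi on FOXO1-GFP KO cells, 0.04 for genotype with PI3Kdi and 0.09 for the difference of responses, each within or close to the spread between pairs or libraries of 0.09 to 0.28, and it was 0.0005 for genotype without PI3Kdi. Over the 7 mRNAs alone it was -0.03 for PI3Kdi on WT cells and the same as over all 9 in the other comparisons.

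mt-Nd6, the only one of the 9 encoded on the other strand of the mitochondrial genome, had the largest SE of the 7 mRNAs. The untreated WT libraries held 71.2, 145 and 135 FPKM, and those with PI3Kdi 73.04, 116 and 74.7 FPKM. The untreated FOXO1-GFP KO libraries held 56.9, 57.9 and 156 FPKM, and those with PI3Kdi 74.9, 85.9 and 174 FPKM. In each group 1 or 2 libraries lay far above the others, and all groups overlapped. It overlaps the end of mt-Nd5 on the opposite strand (chrM:13552-14070 and chrM:11742-13565). Its log2 fold change was -0.38 ± 0.44 (SE) for PI3Kdi in WT cells and 0.37 ± 0.44 in the knockout, and their difference of 0.75 ± 0.62 had an adjusted p of 1.

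Among isoforms that replace one another, the forms used in most tissues were the ones expressed. Cox6a1 held 204 to 417 FPKM, Cox6b1 216 to 372, Cox7a2 118 to 227, Cox8a 246 to 482 and Cox4i1 177 to 314 FPKM over the 12 libraries. The heart and muscle form Cox7a1 held 1.67 to 5.52 FPKM, the testis form Cox6b2 0.60 to 2.40 FPKM and the heart and muscle form Cox6a2 0.00 to 1.06 FPKM. Of the 3 genes for the same subunit c, Atp5g3 held 110 to 156 FPKM and Atp5g2, uncertain for its shared sequence, 38.1 to 48.2 FPKM. Atp5g1 held less, with a low of 16.6 FPKM, but was scaled to an exon length of 4912 bases, against 1675 for Atp5g2. In estimated reads the order was reversed in every library, with 1555 to 6639 for Atp5g1 and 974 to 3702 for Atp5g2. Ndufa4, a subunit now placed in complex IV, held 36.6 to 55.3 FPKM.

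Cox6a2 was the single member past the test. The untreated WT libraries held 0.41, 0.37 and 0.32 FPKM, and those with PI3Kdi 0.23, 0.00 and 0.29 FPKM. The untreated FOXO1-GFP KO libraries held 0.52, 0.45 and 0.69 FPKM, and those with PI3Kdi 1.06, 0.91 and 0.92 FPKM. The 2 groups with PI3Kdi do not overlap, and the estimated reads behind these values were 0 to 22 per library. Its log2 fold change between genotypes with PI3Kdi was 2.18 ± 0.40 (SE, adjusted p = 0.0204 by limma).

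The call held in 15 of 25 alternatives, among them a block shared by all groups (adjusted p = 0.00384). It was lost with the block within genotype (adjusted p = 0.157), with a pseudocount of 0.01 FPKM (0.151), with only the 2 groups compared in the fit (0.112) and without any one of the FOXO1-GFP KO+PI3Kdi libraries (0.0658 to 0.0805). The log2 fold change was 2.11 to 2.21 without those libraries. Without the library listed at 0, WT+PI3Kdi replicate 2, it was 1.56 (adjusted p = 0.00727). The gene (chr7:128205435-128206387, GRCm38) lies within Itgad on the opposite strand, and Itgad was not analysed here. Cox6b2 went the other way between genotypes with PI3Kdi, from 1.33, 2.07 and 2.40 FPKM to 0.97, 1.16 and 1.02 FPKM (-0.79 ± 0.32 SE, adjusted p = 0.394), and did not pass.

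The members that are not structural subunits gave no further call. The 8 complex I assembly factors had medians of -0.14 for PI3Kdi in WT, 0.03 for PI3Kdi in the knockout and 0.22 for genotype with PI3Kdi. The 6 members with pseudogene symbols had -0.13, 0.22 and 0.35. Reads of those that share windows with another transcript are uncertain, whereas Ndufb1-ps, the highest of them at 85.3 FPKM, shared 0% of its windows. Among all members of at least 1 FPKM the largest rises between genotypes with PI3Kdi were in Ndufs5-ps (0.60 ± 0.44 SE), Ndufb2 (0.54 ± 0.34) and Cox7a1 (0.53 ± 0.36), none of which passed (adjusted p = 0.681 to 0.736). The largest fall for PI3Kdi in FOXO1-GFP KO CTL was in Ndufs1 (-0.23 ± 0.18, adjusted p = 0.933), and the largest in WT was in Atp5pb-ps (-0.47 ± 0.23, adjusted p = 0.999).

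Other genes of mitochondrial gene expression and of neighbouring metabolism were counted from lists. No gene passed an adjusted p under 0.05 in any of the 5 comparisons among the 19 genes of mitochondrial DNA transcription and replication, 27 of mitochondrial RNA processing, 22 of electron carriers and coenzyme Q, 49 further assembly factors, 11 nuclear regulators of mitochondrial biogenesis, 78 genes of the mitochondrial ribosome, 7 mitochondrial rRNAs and tRNAs and 77 cytosolic ribosomal protein genes. Their medians lay between -0.12 and 0.26 in all comparisons. With the block at any fold change, beside 7.41% of all genes for PI3Kdi in WT and 10.1% in the knockout, 1 electron carrier gene fell and 1 regulator rose in WT. In the knockout 6 cytosolic ribosomal protein genes rose, 4 assembly factors rose and 2 fell, 2 electron carrier genes rose and 2 fell, and 1 regulator rose. There 1 gene each of mitochondrial RNA processing, the mitochondrial ribosome and the mitochondrial rRNAs and tRNAs fell. The comparisons of genotype and of responses held none with the block.

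A minority of the glycolytic and hypoxia-inducible genes passed the test between genotypes, beside 0.331% of all genes without PI3Kdi and 1.45% with it. Of 18 hypoxia-inducible genes 4 fell in FOXO1-GFP KO CTL without PI3Kdi, Egln3 (-2.13), Ak4 (-2.21), Bnip3 (-0.97) and P4ha2, at log2 fold changes of -0.97 to -2.21, and none rose (median -0.50). With PI3Kdi 6 fell by more than 1.5-fold, the same 4 together with P4ha1 (-1.21) and Pdk1 (-0.94), which restrains entry of pyruvate into the mitochondrion (median -0.46, 5 with the block). Of 19 glycolysis genes, the lactate exporter Slc16a3 fell without PI3Kdi (-1.39), and with PI3Kdi Slc16a3 (-1.55), Pfkl (-1.07) and Tpi1 (-0.72) fell. For the inhibitor neither list held a call, and with the block at any fold change 6 glycolysis genes fell in FOXO1-GFP KO CTL and 1 in WT, beside 10.1% and 7.41% of all genes in either direction. For hypoxia-inducible genes that fit gave 2 that rose and 3 that fell in the knockout and 1 and 3 in WT, of which 2 each passed the fold threshold, beside 2.79% and 2.57% of all genes. The OXPHOS structural subunits held no call in these comparisons of genotype.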

How the data were processed

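Poly(A)-selected stranded mRNA libraries of 12 CTL samples were sequenced, and the authors mapped reads with STAR 2.7.1a to GRCm38.p6, counted them by gene, filtered low genes and deposited FPKM scaled by edgeR's TMM factors. FPKM were used as deposited. Depth per library was estimated from the steps between low values of short genes.

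Log2(FPKM + 0.1) was fitted with limma 3.58.1 (R 4.3.3) over all 13283 genes and 12 libraries, with 4 group means and a mean-variance trend. Calls needed an adjusted p (Benjamini-Hochberg, all genes) under 0.05 with a fold over 1.5. The labels call the replicates biological but do not say whether they came from separate mice or cultures, so p-values measure the spread between these samples. The replicate numbers paired libraries within a genotype (correlation of deviations from group means 0.594 to 0.838 in all 6 pairs). Across genotypes the correlation ran from -0.409 to 0.730, above 0 for replicates 1 and 3 and below 0 for replicate 2. A fit with the replicate number as a block within genotype (correlation 0.757) was an alternative. Alternatives also changed the pseudocount, filter, scaling, model (voom on estimated reads) and libraries. Scripts were checked on simulated data.

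Members, lists and tests were chosen with earlier results of these data known. Genes named were the mitochondrial members, core subunits, interchangeable isoforms, members called in any comparison and the 3 largest rises and falls per comparison; listed genes outside the members were named when called. Sequence windows and promoters came from GENCODE M21 and RefSeq (GRCm38.p6) with Python 3.11.15, and figures from matplotlib 3.10.9. Values after ± are the SE of the limma fit or the SD over libraries or pairs, as marked, and depths are estimates.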

Additional observations from a re-analysis of the deposited data

Results flagged for a closer look

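The mean response of the nuclear subunits to PI3Kdi, pooled over the complexes, pointed in opposite directions in the 2 genotypes. The mean log2 change of the 76 nuclear structural subunits was below 0 in all 3 WT pairs and above 0 in all 3 FOXO1-GFP KO pairs, a difference of 0.160 between the means. The 36 nuclear complex I subunits did the same, with -0.02, -0.02 and -0.12 in the WT pairs and 0.17, 0.17 and 0.06 in the FOXO1-GFP KO pairs, a difference of 0.187. The other complexes did not separate in every pair. In FOXO1-GFP KO pair 3 the mean was -0.002 for complex III and -0.02 for V, and in WT pair 1 it was 0.02 for IV. Complex II fell in FOXO1-GFP KO pairs 2 and 3 (-0.05 and -0.07). In WT the median fold change of the 76 subunits was -0.05, against -0.04 for all genes. The difference of the means was not tested, and no single subunit passed the test of the difference. The cytosolic ribosomal protein genes had a median difference of 0.18 and the replication-dependent histones, whose mRNAs lack poly(A) tails, one of -0.88. The histones varied between pairs, with mean log2 changes of 1.23, 0.94 and -0.15 in WT and -1.16, 0.20 and 0.41 in FOXO1-GFP KO CTL. The part of either set in the OXPHOS values was not tested.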

How the results depend on the processing

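The single call, Cox6a2 between genotypes with PI3Kdi, was lost with the replicate block within genotype, with that block on voom or on values with length and GC trends removed, at any fold with the block, with a pseudocount of 0.01 FPKM or only the groups compared, and with WT pair 1 and FOXO1-GFP KO pair 3 left out with or without the block (0 members each). A filter at a mean of 1 FPKM also gave 0, since it removed Cox6a2 before the test. The count was 0 to 1 when 1 library was left out. With the replicate block at any fold, 1 member was called for PI3Kdi in WT and 4 for PI3Kdi in FOXO1-GFP KO, and the block changed no other call. Leaving out those 2 pairs gave 2 calls for genotype without PI3Kdi, with or without the block, mt-Nd6 (-1.28) and mt-Nd4, which turned from 0.09 to -0.64 in both fits, beside 41 genes up and 103 down of all 13283 (32 and 104 with the block). That choice was made after the levels were seen and sets the direction.

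The mitochondrial minus nuclear median log2 fold change ran, without 1 library, from -0.129 to 0.0782 for PI3Kdi in WT, from -0.13 to 0.25 for PI3Kdi in FOXO1-GFP KO and from -0.12 to 0.26 for the difference of responses. With length and GC trends removed, with or without the block, it was 0.11 for PI3Kdi in WT, and with the 2 pairs left out, with or without the block, it was -0.24 for genotype without PI3Kdi. The cause of these changes was not tested. Of 6564 values of single named genes under an alternative, 6550 stayed on the same side of the threshold, 10 lost the call, 2 gained one and 2 gained one with the sign turned. Signs of uncalled values were less steady: 552 of the 6564 had the other sign than in the reported fit, up to 8 of 26 alternatives for a gene and comparison.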
